A study of Mus musculus with 39 samples.

Results

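The sites described here are ER calls made in 7438 mouse mammary cells given dexamethasone that were found in no other list of the study. Members are the sites of that list that share no base with any site of the other 23 deposited lists. There were 9662 of them among the 10149 sites of the ER list with dexamethasone, and among 110608 called sites over all 24 lists. The members were chosen by measured values, namely the presence or absence of a call in each list, and the lists of 7438 hold sites with tag densities from 10 and z-scores from 15 upward; these values are therefore given as a description, with no test. The labels name a second replicate of this library, which was not analysed here, and do not say whether the list pools both. Each site therefore carries a single value, with no replicate error. Exact binomial (Clopper-Pearson) 95% intervals are given for shares; they cover counting error only.

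The study used ChIP-seq to map binding of estrogen receptor (ER) and of glucocorticoid receptor (GR). In this assay, DNA bound by a protein is recovered with antibodies and sequenced. 7438 cells carry GFP-GR and Cherry-ER, both under a tetracycline-regulated promoter. Tetracycline was withdrawn 24 h before hormone in every group to induce the fusion proteins, in medium with 10% charcoal-dextran serum. Cells were left untreated or received 100 nM dexamethasone (Dex, a synthetic GR ligand), 100 nM estradiol (E2, the ER ligand) or both (Dex+E2) for 30 min. A derivative, 7438 Afos, went through the same 4 treatments; its labels say that it also expresses Afos from a tet-regulated promoter and no more. An engineered protein of that name, A-Fos, binds AP-1 subunits and blocks their contact with DNA. The 24 lists comprise 1 for each receptor and treatment in 7438 and 2 for each in 7438 Afos, and they hold between 35 and 14160 sites. Sequencing depth is unknown, since the lists hold no read totals. In 7438 the untreated and Dex+E2 lists of each receptor carry names that run opposite to their labels. They are called here by label, and all values given for them go by label. In 7438 the lists labelled untreated hold 9503 (GR) and 11982 (ER) sites, and those labelled Dex+E2 hold 143 and 373. In 7438 Afos the untreated lists hold 95 and 315 (GR) and 35 and 49 (ER) sites. Its Dex+E2 lists hold 14160 and 10309 (GR) and 5905 and 2564 (ER). Which label is right was not tested. Membership does not depend on it, since the rule searches all of them. Shares and overlaps given by treatment do.

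ER and GR are nuclear receptors, transcription factors that bind DNA after their steroid ligand has bound them. Liganded GR recognises glucocorticoid response elements and is known to open chromatin and to use regions that AP-1 holds accessible. ER recognises estrogen response elements, and without estrogen it is largely in an inactive state, although its own ligand is not required for every contact with chromatin. A call in an ER library from cells that received only Dex is therefore a call for a receptor whose own ligand was not added.

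Nearly the whole ER list with Dex consisted of sites found nowhere else. The members were 95.2% of that list (interval 94.8 to 95.6%). The same rule applied to the ER list with E2 in 7438 left 421 of 7136 sites, or 5.90% (5.36 to 6.47%). That number depends on the lists searched: it was 732 against the lists of 7438 alone and 2018 against the Afos lists alone, where the members numbered 9852 and 9744. In the GR list with Dex from the same treatment it left 1968 of 12084 sites (16.3%). Over the other lists of 7438, named by label, the share for GR was 1.14% untreated, 17.5% with E2 and 2.80% with Dex+E2. For ER it was 15.04% untreated and 21.4% with Dex+E2. In 7438 Afos, replicates 1 and 2 gave 6.32% and 16.2% for untreated GR, 3.25% and 0.350% for GR with Dex, 1.63% and 5.48% for GR with E2, and 13.8% and 1.64% for GR with Dex+E2. The Afos ER lists gave 31.4% and 26.5% untreated, 29.5% and 17.1% with Dex, 11.3% and 2.82% with E2, and 2.15% and 2.22% with Dex+E2. No other list came near the share of the ER Dex list. The highest of these came from very short lists, such as the 35 ER sites of untreated 7438 Afos, replicate 1. Among the 12 other lists with more than 1000 sites, the highest share was 16.3%.

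**Figure D1:**
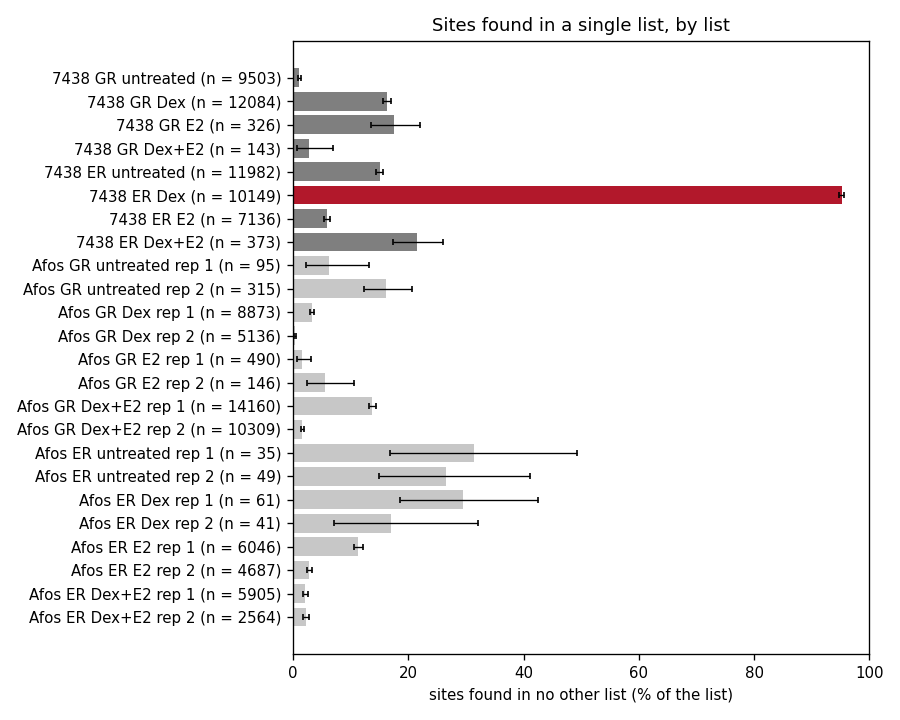
Share of the sites of each of the 24 lists that overlap no site of any other list (bars, % of the list; whiskers are exact binomial 95% intervals; n is the length of the list). The ER list of 7438 with Dex (red) stands at 95.2%, and the other 23 lists lie between 0.350% and 31.4%.

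The lists of the same receptor and treatment in 7438 Afos were short and hold none of the members, which the rule fixes. They held 61 sites in replicate 1 and 41 in replicate 2. Of the whole ER Dex list of 7438, 14 sites overlapped the first and 7 the second, or 0.138% and 0.0690% of the list. For ER with E2 the corresponding shares of the 7438 list were 57.9% and 51.5%, and for GR with Dex they were 59.8% and 40.3%. Read in the other direction, 13 of the 61 and 7 of the 41 sites were in the ER Dex list of 7438 (21.3% and 17.1%). The other short Afos lists, of untreated cells and of GR with E2, had shares from 2.86% to 16.3%. Among them, untreated GR had 15.8% and 12.1%. The name "found only with dexamethasone" describes a single list. That the Afos lists with Dex lack the members follows from the rule and is no finding about the cells. The 2 cell lines differ in Afos and in how their lists were made, and these cannot be told apart.

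The remaining 487 sites of the ER Dex list were shared with at least 1 other list. GR lists alone held 238 of them, other ER lists alone held 68, and 181 were in lists of both receptors. GR lists hold 61.3% of the sites searched and the other ER lists 38.7%, and whether the counts differ from these shares was not tested. Their median was 4 other lists, and 87 were in a single other list. In 7438, 235 ER Dex sites were in the GR list with Dex and 199 in GR labelled untreated. ER labelled untreated held 145 and ER with E2 held 89. The sites overlapped by the ER Dex list were 1.94%, 2.10%, 1.22% and 1.26% of those lists. The shares were higher in the short lists of 7438, which held few ER Dex sites. They were 9.51% for GR with E2, 7.69% for GR labelled Dex+E2 and 15.01% for ER labelled Dex+E2. These lists held 31, 11 and 57 ER Dex sites. In 7438 Afos, the GR lists with Dex held 296 and 214 ER Dex sites (3.30% and 4.13% of these lists overlapped), and those with Dex+E2 held 299 and 313 (2.09% and 3.01%).

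Members had low tag densities, close to the lower limit of the deposited list, as did the sites in no other list of every other 7438 library. Highest tag density (maxD, the authors' value for each site, in a scaling that is not stated) started at 10 in all lists of 7438. Among members maxD had a median of 13.0, with quartiles of 11.3 and 16.2, and it ran from 10.1 to 387. In the ER list with E2 the median was 17.1, with quartiles of 12.7 and 27.0 and a range of 10.0 to 374. The 421 E2 sites in no other list had a lower median than the members, 11.7, and a highest value of 25.4. For the sites in no other list of the remaining 7438 lists, the median was 11.1 in untreated GR, 12.8 in GR with Dex, 11.8 in GR with E2, 12.8 in GR with Dex+E2, 12.6 in untreated ER and 12.01 in ER with Dex+E2. The members' median was the highest of these 8. The 487 shared ER Dex sites had a median of 16.8, a highest value of 173 and quartiles of 13.4 and 28.4. These are values of separate lists, and whether their tag densities are on a common scale is not stated.

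Below a maxD of 12 lay 36.2% of members (3498 sites), against 19.5% of the E2 list and 12.1% of the GR Dex list. The share was higher than in members among E2 sites in no other list (56.1%). It was also higher in the short lists labelled Dex+E2 of GR (48.3%) and ER (42.4%). Below 20 lay 88.0% of members and 60.5% of the E2 list. At or above 50 there were 61 members (0.631%), against 598 E2 sites (8.38%). Average tag density (aveD), listed in whole numbers, had a median of 9 in members (quartiles 8 and 12), also 9 in E2 sites in no other list, and 13 in the whole E2 list (quartiles 9 and 22). The tag densities of the ER Dex list took few distinct values, 1559 for 10149 sites, whereas the shorter E2 list had 2969.

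The single-list share of the ER Dex list was high at every tag density. In the lowest decile of maxD (10.1 to 10.5) members were 97.9% of the sites (971 of 992), and in the ninth decile they were 94.8%. In the highest decile they were 83.1% (841 of 1012; 80.6 to 85.4%). In the E2 list the share went from 19.6% in the lowest decile to 0 of 714 in the highest, where the interval ends at 0.515%. In the GR Dex list it went from 50.8% to 0 of 1209.

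**Figure D2:**
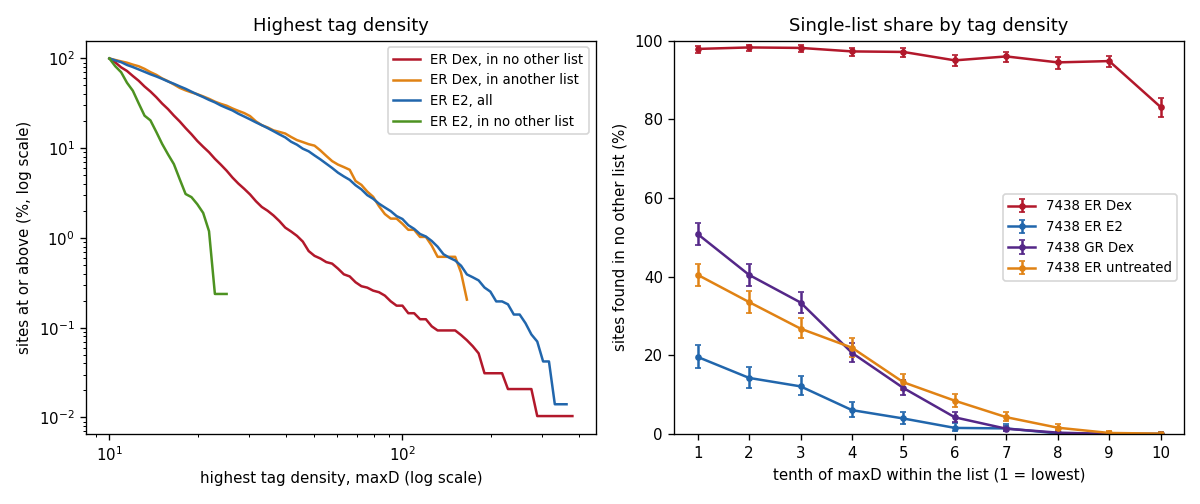
Left, share of sites at or above a given highest tag density (both axes logarithmic) for ER Dex sites in no other list, ER Dex sites in another list, all ER E2 sites and ER E2 sites in no other list. Right, share of sites in no other list by decile of maxD within a list, with exact binomial 95% intervals. The ER Dex line stays between 83.1% and 98.3%, while ER E2 goes from 19.6% to 0.

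The z-score, the authors' score for each site, was lower in members than in E2 sites of the same class of listed maxD. Whether maxD is on a common scale between lists is not stated. Its median was 30.1 in members (quartiles 24.5 and 36.6) and 50.9 in the E2 list (40.7 and 69.4). Among sites with maxD from 10 to below 12, the median z-score was 26.2 for members, 36.9 for E2 sites and 32.5 for GR Dex sites. From 20 to below 30 it was 43.5 for members, 64.4 for E2 and 60.5 for GR Dex. The shared ER Dex sites had values near those of the members in these classes, 24.2 and 46.3. Within these classes the difference was therefore one between lists, and it did not separate members from other sites of their own list. Over all tag densities the shared ER Dex sites had a higher median z-score than the members, 35.7 (quartiles 26.5 and 51.4). In the lowest class the short GR list with E2 and the short ER list labelled Dex+E2 also had low medians, 26.3 and 26.5. What background the z-score was taken against is not stated.

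The numbering of sites also set the ER Dex list apart from the longer lists of 7438. Site numbers ran to 21254, so the 10149 listed sites were 47.8% of the highest number; this was 66.7% for ER with E2 and 86.7% for GR with Dex. The parent number that each site carries ran to 40659, against 11874 and 14572. In the ER Dex list 78 sites (0.769%) shared a parent number with another site, against 6.49% in the E2 list and 7.49% in the GR Dex list. The files do not explain the parent number.

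The strongest members lay on several chromosomes and were often near, but not in, sites of other lists. Coordinates are mm9, as the lists give them. The member with the highest tag density was on chromosome 7 (148379711 to 148379861), with a maxD of 387, an aveD of 300 and a z-score of 235. The third strongest, with a maxD of 229, lay on the same chromosome (148378807 to 148378957), 301 bp from a site of the ER list labelled untreated. The second was on chromosome 6 (119429310 to 119429460), with a maxD of 285 and a z-score of 228, 2482 bp from the nearest GR site. None of these regions can be given a gene here, as no mm9 annotation was used.

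A member on chromosome 4 (43394765 to 43394915) reached a maxD of 189 with a z-score of 99.8, which placed it only 32nd by z-score. One on chromosome 10 (80755910 to 80756060) had a maxD of 185 and a z-score of 200.4, and lay 371 bp from a GR site and 467 bp from an ER site. On chromosome 12, 2 members (119082120 to 119082270 and 60232328 to 60232478) had a maxD of 180.0 and 155 and lay 12102 and 52874 bp from the nearest site of another list. The others of the 10 strongest were on chromosome 9 (63450327 to 63450477; maxD 173), chromosome 16 (23988803 to 23988953; maxD 165) and chromosome 8 (19713049 to 19713199; maxD 129). Of these 10, 7 lay within 10 kb of a site of another list, counting both neighbours on chromosome 7. The share was 25.6% over all members and 43.4% in the highest decile of maxD among members. The 5 members of highest z-score were all among the 10.

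At the boundary of the rule, the closest members differed little from sites that missed it. A member on chromosome 12 (35206267 to 35206417; maxD 13.4) touched a GR Dex site end to end with a gap of 0 bp. Members on chromosomes 14 (49065921 to 49066071; maxD 28.0) and 1 (168099566 to 168099716; maxD 12.1) missed the nearest site by 1 and 5 bp. Just outside, a site on chromosome 16 (26065377 to 26065527; maxD 13.6) overlapped a GR Dex site by 2 bp, and sites on chromosomes 13 (54795094 to 54795244; maxD 42.4) and 7 (119611307 to 119611457) overlapped by 3 and 4 bp.

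Members were found on all autosomes and on X, with shares that differed from those of the E2 list. Chromosome 1 held 939 members, or 9.72% (9.13 to 10.3%), against 6.43% (5.87 to 7.03%) of E2 sites and 7.43% (6.97 to 7.91%) of GR Dex sites. Chromosome 6 held 8.08% of members, 5.65% of E2 sites and 6.02% of GR Dex sites, and chromosome 3 held 6.98%, 4.39% and 5.45%. On chromosome 11 the order was reversed, with 5.82% (5.36 to 6.30%) of members and 9.53% (8.86 to 10.2%) of E2 sites. GR Dex sites stood there at 6.67% (6.23 to 7.13%), an interval that overlaps that of the members. Chromosome 7 was also lower in members, with 4.31% against 5.84% of E2 sites and 5.74% of GR Dex sites. Sites of a list share their library, so the intervals are narrower than the error of a repeat would be.

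Per megabase, counted over the span between the outermost sites of all lists, there were 3.76 members. The highest autosome was chromosome 12 with 5.65 members per Mb, followed by chromosome 6 with 5.34. The lowest was chromosome 14 with 1.65, and X had 0.662. Chromosome 14 was also the lowest autosome for ER with E2 (1.61), GR with Dex (2.82) and ER labelled untreated (2.63), and X was lower still in each of them (0.221, 0.993 and 0.447). The highest autosome in those 3 lists was chromosome 11. Over the 19 autosomes the number of members followed the span with a Pearson r of 0.769, against 0.537 for the E2 list and 0.806 for the GR Dex list; the chromosomes of a list share its library, and this is a description.

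**Figure D3:**
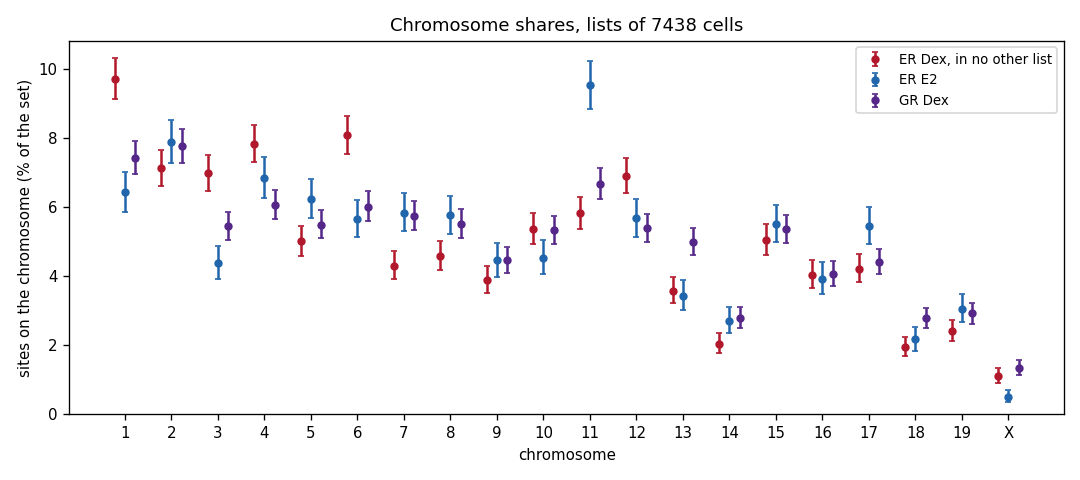
Share of sites on each chromosome (points, % of the set; whiskers are exact binomial 95% intervals) for ER Dex sites in no other list, the ER E2 list and the GR Dex list of 7438. Members are higher than E2 sites on chromosomes 1, 3 and 6 and lower on chromosome 11.

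Members were spread more evenly along the chromosomes than the sites of the other long lists. Of 2586 bins of 1 Mb, 87.6% held at least 1 member, against 54.0% for ER with E2 and 68.6% for GR with Dex, although the GR Dex list has more sites. The variance of the count per bin was 2.51 times its mean for members, 7.18 times for ER with E2 and 6.99 times for GR with Dex. The fullest 10% of bins held 27.3% of members, 49.1% of E2 sites and 38.1% of GR Dex sites. The fullest bins held 20 members each, on chromosome 6 (144000000 to 145000000) and chromosome 16 (23000000 to 24000000), which also held 9 and 12 E2 sites and 19 and 10 GR Dex sites. A bin on chromosome 6 (12000000 to 13000000) held 18 members, 16 GR Dex sites and no E2 site. In 472 bins no other list had a site, and 333 of these held members, 903 in all (9.35%). The rule makes nearly any ER Dex site in such a bin a member. No other list was counted this way, so these counts say nothing about evenness.

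Neighbouring members were far apart. The median gap to the nearest other member was 67938 bp, with quartiles of 24641.5 and 154491 bp. It was 17635 bp in the E2 list and 12371 bp in the GR Dex list. Another member lay within 10 kb for 12.3% of members (11.6 to 12.9%), against 41.4% (40.2 to 42.5%) in the E2 list and 46.5% in the GR Dex list. Within 1 kb the shares were 2.19%, 12.3% and 14.4%. The smaller sets most like the members were also widely spaced. Another site of the same set lay within 10 kb for 6.18% of the 421 E2 sites in no other list and for 9.65% of the 487 shared ER Dex sites, and within 1 kb for 1.90% and 3.29%. Spacing depends on the size of a set, and these sets are of unequal size. Nearest in size to the 9662 members was the GR list labelled untreated, with 9503 sites. Its median gap was 12492 bp, with 46.6% of sites within 10 kb of another and 14.4% within 1 kb.

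Groups of members with gaps of at most 10 kb were few and small. Of the members, 8477 were single in this sense, 988 fell in pairs and 153 in groups of 3. There were 6 groups of 4 and 4 groups of 5, and no larger one. A group of 5 on chromosome 16 (23985443 to 23993120) had maxD of up to 165 and holds the 8th strongest member. On chromosome 17, groups of 5 lay at 17993097 to 18004524, with maxD between 12.1 and 13.9, and at 84582826 to 84587247, with maxD between 17.6 and 45.3.

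**Figure D4:**
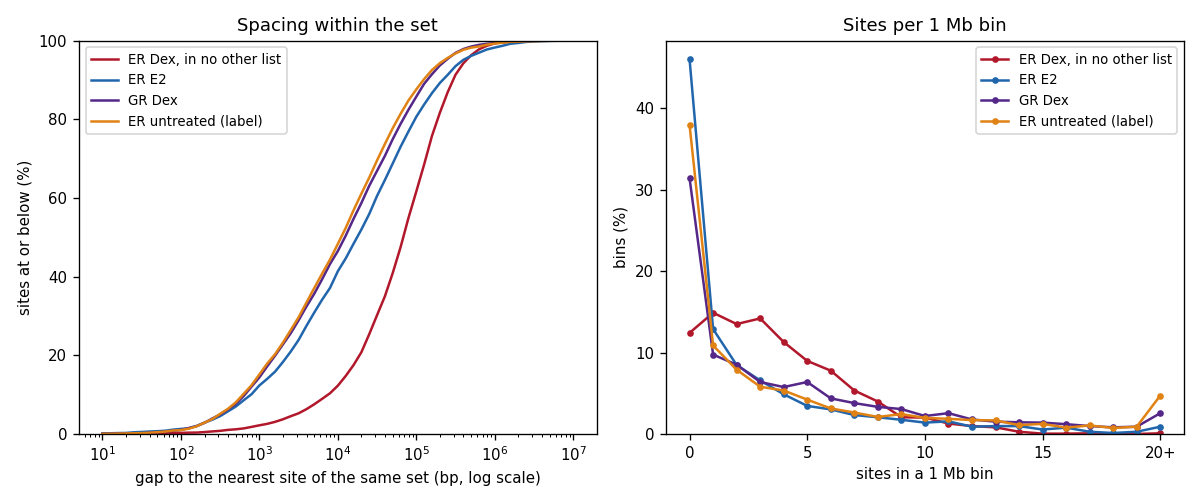
Left, share of sites whose nearest neighbour in the same set lies at or below a given gap (bp, logarithmic axis). Right, share of 1 Mb bins by the number of sites they hold, with 20 or more in the last class. Members have a median gap of 67938 bp and leave few bins empty; the ER E2, GR Dex and ER lists labelled untreated have shorter gaps and more empty bins.

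Beyond the overlap that the rule sets to 0, members lay farther from the sites of other lists, by their median gap, than did the single-list sites of the 5 other lists compared. The median gap from a member to the nearest site of any other list was 36046 bp, with quartiles of 9585 and 130998 bp. By the same rule, the median was 7997 bp for ER with E2, 10806.5 bp for GR with Dex and 7244.5 bp for ER labelled untreated; the ER Dex list was left out of these searches. In 7438 Afos it was 18635 bp for GR with Dex+E2, replicate 1, and 16730 bp for ER with E2, replicate 1. Within 1 kb of another site lay 6.05% of members (585), against 14.3%, 14.8% and 17.3% for the 3 lists of 7438 and 7.22% and 8.05% for the Afos lists. At 1 kb the interval of the members (5.59 to 6.55%) overlapped those of both Afos lists (6.11 to 8.45% and 6.12 to 10.4%). Within 10 kb lay 25.6% of members (24.7 to 26.4%), against 57.7% (52.8 to 62.5%), 48.5% and 56.7%, and 36.0% and 36.5%. Within 100 kb the members stood at 70.5%, against 97.6%, 92.2% and 97.3%, and 85.5% and 86.5%.

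**Figure D5:**
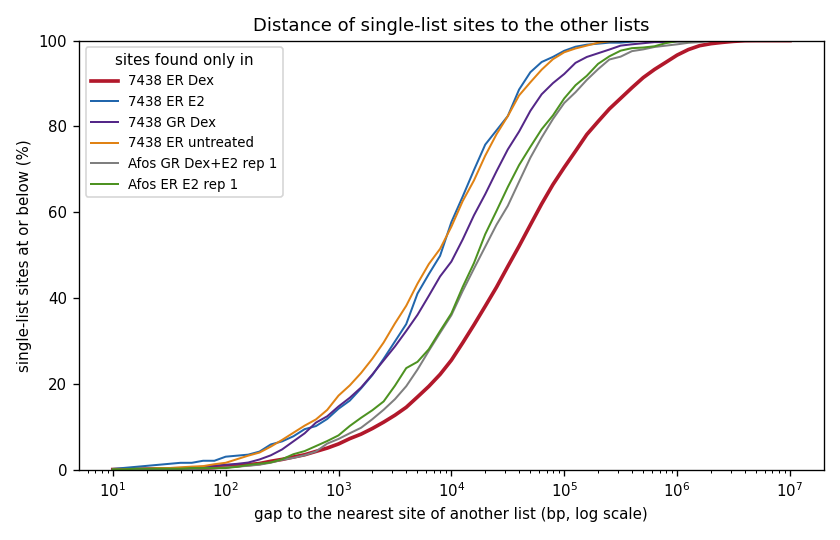
Share of single-list sites with a site of another list at or below a given gap (bp, logarithmic axis), for 6 lists. The line for ER Dex (median 36046 bp) runs to the right of the other 5 lines from about 1 kb upward; their medians lie between 7244.5 and 18635 bp.

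Stronger members lay nearer to sites of other lists. In the lowest decile of maxD among members the median gap was 57215 bp and 18.7% of members (16.3 to 21.3%) lay within 10 kb of another site. In the highest decile, with maxD of 21.2 or more, the median gap was 13299 bp and 43.4% (40.3 to 46.6%) did. The deciles between ran from 18.7% to 31.7%, not always in order.

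The nearest site of another list was a GR site for 6808 members (70.5%) and an ER site for 2839 (29.4%), with 15 equally near. GR lists hold 61580 of the sites searched (61.3%) and the other ER lists 38879 (38.7%), and many of those sites recur between lists. The median gap was 46343.5 bp to a GR site and 80997 bp to an ER site of another list. A GR site lay within 10 kb of 20.4% of members (19.6 to 21.3%) and an ER site within 10 kb of 15.8% (15.1 to 16.6%). Of the single lists of 7438, GR with Dex had a site within 10 kb of 1361 members (14.1%) and ER with E2 of 812 (8.40%), and the GR list is the longer. ER labelled untreated, with 11982 sites against 12084 for GR with Dex, had a site within 10 kb of 1250 members (12.9%). GR labelled untreated, with 9503 sites, had one within 10 kb of 1103 (11.4%). For E2 sites in no other list the medians were 13264 bp to GR and 12423 bp to ER.

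The 5 members farthest from any other site had tag densities on both sides of the members' median. The farthest, on chromosome 5 (59217408 to 59217558), lay 4600654 bp from the nearest site and had a maxD of 14.5 and a z-score of 30.0. The next lay on the same chromosome (58660439 to 58660589; maxD 13.5) at 4043685 bp. The others were on chromosomes 15 (17540682 to 17540832; maxD 12.5), 6 (77138064 to 77138214; maxD 10.4) and 1 (103737334 to 103737484; maxD 10.6), between 3857233 and 3878393 bp away. In all, 33 members lay beyond the outermost site of every other list on their chromosome. By the rule any ER Dex site there is a member, and no other list was counted this way.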

How the data were processed

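Per the labels' protocols, GR- or ER-bound DNA was isolated with antibodies from sonicated nuclei. Of 39 samples, 24 had a list of called sites; the other 15 were not analysed here. Per the submitters' processing notes, the build was mm9 and CASAVA 1.8 was used. Which caller and control were used, and whether replicates were pooled, is not given in the sources used here. Per the file headers, the deposited values of a site are its highest and average tag density (a signal) and its z-score (a score of the authors). Sites of 7438 were 150 bp wide, with maxD from 10 and z-scores from 15 upward; those of 7438 Afos were 251 to 6142 bp wide.

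Groups were taken from the labels. Overlap meant at least 1 shared bp, with starts and ends read as half-open, and a gap is the number of bp between sites. Overlap, gap and spacing functions were tested on simulated data. No test was run, since each treatment of 7438 has a single list; medians, counts and exact binomial intervals are given. The named sites are the 10 of highest maxD, the 5 of highest z-score, the 5 farthest from and 3 nearest to another list, 3 just outside the rule and 3 of the largest groups. The members and these rules were chosen with earlier results of these data known. Alternatives were other overlap rules, subsets of the lists, a higher tag density and exchange of the lists with contradicting names. Python 3.11.15, NumPy 2.4.6, SciPy 1.17.1, pandas 2.3.3 and matplotlib 3.10.9 were used.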

Additional observations from a re-analysis of the deposited data

How the results depend on the processing

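The number of members was 9734 with an overlap of at least 0.5 of the shorter site, 9322 with the other sites widened by 500 bp, 9852 against the other lists of 7438 alone and 9744 against the Afos lists alone. It was 9695 and 9681 without Afos replicate 1 or 2, and exchanging the lists with contradicting names gives 9662 by construction, since all of them are searched. Only a limit at the median maxD of the list moved it by more than 1.5 times, to 4703, since that removes about as many sites as it keeps. Median maxD, aveD and z-score were then 16.3, 12 and 35.1. The shares near another list became 7.87% (1 kb), 31.0% (10 kb) and 76.9% (100 kb), those near another member 9.76% (10 kb) and 47.1% (100 kb), and the share on X 0.680%. Widening moved the shares near another list to 2.63%, 22.8% and 69.4%, by its own construction, and that of members within 100 kb of another member to 60.0%. With the lists of 7438 alone, 22.6% and 63.1% lay within 10 and 100 kb of another list; without an Afos replicate these were 23.5 to 25.4% and 66.1 to 70.0%. The E2 sites in no other list numbered 732 against the lists of 7438 alone, 2018 against the Afos lists alone and 22 at or above the median maxD. The share on chromosome 1 lay between 9.46% and 9.85% in the 5 alternatives that gave it. No paired analysis was possible because no result comes from a test and 7438 has a single list for each treatment. Sequence content was not run, as no mm9 genome was used. Depth is unknown, so sites of low density cannot be given a counting error.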
